A study of Mus musculus with 6 samples.

Results

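The 8 genes described here encode amino acid transporters of the cell surface, read in cultured epidermal keratinocytes of control mice and of mice labelled as knockouts of the transcription factor Ovol1 or of both Ovol1 and Ovol2. They were Slc6a14, Slc1a1, Slc1a4, Slc1a5, Slc3a2, Slc7a5, Slc7a11 and Slc38a2, 8 of 19938 genes named on the array. They were chosen by name, with earlier results of these arrays known. Slc6a14 and Slc1a1 were already known to be low in the double knockout, so their values there are a description with no test. Each of the 8 was read by 1 probe set annotated to it alone. Values are log2(intensity + 16), called log2 levels below, and a difference is a difference of log2 levels.

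Keratinocytes were taken from the skin of C57BL/6 embryos at E18.5 and cultured for 2 to 5 days, labelled as without calcium, a signal that makes keratinocytes differentiate. RNA from 2 mice was hybridised to each of 6 Affymetrix arrays, 2 per group, which the labels call biological replicates of females. The 2 control arrays held mice that were Ovol2flox/+ with Ovol1+/-, or Ovol2flox/+ with K14-Cre, so the controls were of mixed genotype, short of 1 copy of Ovol1 or, in keratinocytes, 1 copy of Ovol2. The 2 arrays labelled Ovol1 KO held Ovol1-/- mice, and the 2 Ovol1/2 DKO arrays held Ovol1-/- mice that were also Ovol2flox/- with K14-Cre. The keratin 14 promoter limits the Cre to basal keratinocytes and cells derived from them, while the Ovol1-/- label names no limit to a cell type. The stated aim was to find primary changes. The arrays allow Ovol1/2 DKO to be set against control, Ovol1 KO against control, and both knockouts against each other.

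Amino acid transporters bring in the building blocks of protein and glutathione, and cells that divide, as basal keratinocytes do, need a steady supply. Some use the sodium gradient to concentrate their substrate, as Slc6a14, Slc1a1 and Slc38a2 do, and others exchange one amino acid for another, as Slc1a4, Slc1a5 and the complexes of Slc3a2 with Slc7a5 or Slc7a11 do. Several of these genes are known targets of Atf4, the transcription factor that cells make when amino acids are short, and Slc7a11 is also a known target of Nrf2, the factor of the oxidant response.

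The promoters of 6 of the 8 genes were in the RefSeq table of GRCm38.p6, each 300 bases long, from 250 before to 50 after the annotated start. Those of 4 genes are shown: Slc6a14 and Slc1a1 because both were near background in the double knockout, and Slc1a4 and Slc7a11 because they hold the core of the amino acid response element. They are written 5′ to 3′ on the strand of the gene, with motif matches in capitals. Slc6a14 lies on the plus strand at chrX:21714650-21714949 and Slc1a1 on the plus strand at chr19:28834885-28835184. Slc1a4 lies on the minus strand at chr11:20332664-20332963 and Slc7a11 on the minus strand at chr3:50443564-50443863.
Slc6a14: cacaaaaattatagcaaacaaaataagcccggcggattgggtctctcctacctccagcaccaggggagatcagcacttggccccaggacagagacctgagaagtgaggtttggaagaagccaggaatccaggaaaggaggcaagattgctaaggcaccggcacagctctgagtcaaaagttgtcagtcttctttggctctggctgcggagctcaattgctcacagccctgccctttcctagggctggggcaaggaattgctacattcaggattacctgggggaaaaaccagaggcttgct
Slc1a1: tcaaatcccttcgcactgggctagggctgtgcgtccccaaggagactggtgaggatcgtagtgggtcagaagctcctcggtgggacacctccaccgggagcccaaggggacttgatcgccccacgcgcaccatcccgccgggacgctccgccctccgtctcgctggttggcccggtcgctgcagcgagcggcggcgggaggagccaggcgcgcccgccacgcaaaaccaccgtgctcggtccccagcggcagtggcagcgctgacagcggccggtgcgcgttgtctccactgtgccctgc
Slc1a4: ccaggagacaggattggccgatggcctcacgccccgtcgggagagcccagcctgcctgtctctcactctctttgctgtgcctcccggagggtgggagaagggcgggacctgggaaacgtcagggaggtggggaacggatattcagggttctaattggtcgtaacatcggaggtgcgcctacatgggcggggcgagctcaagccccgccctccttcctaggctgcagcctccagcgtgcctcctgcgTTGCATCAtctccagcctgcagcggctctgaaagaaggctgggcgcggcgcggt
Slc7a11: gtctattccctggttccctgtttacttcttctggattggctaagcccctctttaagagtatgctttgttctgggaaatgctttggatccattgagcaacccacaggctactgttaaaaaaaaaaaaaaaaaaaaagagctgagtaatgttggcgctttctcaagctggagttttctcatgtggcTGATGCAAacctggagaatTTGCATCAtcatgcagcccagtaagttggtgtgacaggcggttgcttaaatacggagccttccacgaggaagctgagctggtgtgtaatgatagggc
4 motifs were searched on both strands. CCGTTA, a core bound by Ovo factors, was in none of the 6 promoters and in 2.76% of all 32851 promoters of the table. CACCTG, an E-box bound by Zeb factors that reads CAGGTG on the other strand, was in the promoter of Slc38a2 alone among the 6, at bases 179 to 184, and in 20.2% of all promoters. TGATGNAA, the core of the amino acid response element, was in the Slc7a11 promoter at bases 185 to 192 and, on the other strand, at bases 204 to 211. The Slc1a4 promoter held it on the other strand at bases 247 to 254, and 3.97% of all promoters held it. TGACNNNGC, the core of the antioxidant response element, was in the Slc38a2 promoter at bases 224 to 232 and in 12.4% of all promoters. A match is a run of letters, not a site shown to be bound.

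The arrays were compared over all genes before the transporters were read. Ovol1 itself stood at 9.64 and 9.95 on the control arrays, 10.75 and 9.80 on the arrays labelled Ovol1 KO, and 5.96 and 6.22 on the Ovol1/2 DKO arrays. Ovol2 stood at 8.37 and 6.97 in control and at 7.88 and 8.38 for the labelled Ovol1 KO. Its mean in Ovol1/2 DKO was 7.56, and both of those arrays lay between the control arrays. The arrays labelled Ovol1 KO were thus not low for Ovol1; whether the probe sets lie in the deleted parts is not given in the sources used here, and these arrays are called by their label throughout. Xist, which the inactive X chromosome transcribes, stood at 4.43 and 4.54 on replicate 1 of control and of the labelled Ovol1 KO and at 10.99 to 11.43 on the other 4 arrays, although all 6 are labelled female. All 10 measured keratinocyte markers were above background on every array, and their mean log2 level ran from 11.62 to 11.93. Background is taken here as 6.20, the highest array median of probe sets without a gene name. In these whole cultures, fewer cells of a type and less RNA per cell cannot be told apart.

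Slc6a14 and Slc1a1 were bright on the control arrays and on the arrays labelled Ovol1 KO, and below background on both Ovol1/2 DKO arrays. Slc6a14 encodes a sodium- and chloride-driven carrier of wide specificity that concentrates neutral and cationic amino acids. The 2 control arrays read 11.28 and 12.03, the labelled Ovol1 KO arrays 11.08 and 11.56, and the Ovol1/2 DKO arrays 4.34 and 5.78 (log2 level). On the linear scale these were intensities of 2464 and 4157, of 2153 and 3009, and of 4.29 and 38.9. Both double knockout arrays lay far below the other 4 arrays, of which the lowest was 4.89 above background, while control and labelled Ovol1 KO overlapped. The difference of Ovol1/2 DKO from control was -6.59 (SE 0.50, n = 2 arrays a group), and from the labelled Ovol1 KO -6.26 (SE 0.50). Because the double knockout arrays were below background, the fold is given as a bound, at least 43.9-fold lower than control and at least 34.9-fold lower than the labelled Ovol1 KO. Under the other offsets added before the logarithm, 1 and 64, the difference from control was -7.78 and -5.28. Slc6a14 is on the X chromosome, and without both arrays that lack Xist signal it was -6.97.

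Slc1a1 encodes a high-affinity sodium-driven carrier of glutamate and aspartate that also takes up cysteine. The log2 level of Slc1a1 was 11.53 and 11.40 for control, 11.72 and 11.41 for the labelled Ovol1 KO, and 4.97 and 5.93 for Ovol1/2 DKO. The 4 arrays with signal lay within a narrow band, the lowest 5.20 above background, and both double knockout arrays lay below it. The difference was -6.01 (SE 0.33) from control and -6.11 (SE 0.33) from the labelled Ovol1 KO, at least 38.5-fold and at least 41.2-fold lower. Offsets of 1 and 64 gave -6.68 and -4.95 against control. Neither gene differed detectably between the labelled Ovol1 KO and control in the limma fit over all genes. That difference was -0.33 for Slc6a14, with a 95% interval from -1.52 to 0.86, and 0.10 for Slc1a1 (SE 0.33), both with an adjusted p of 0.999.

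**Figure D1:**
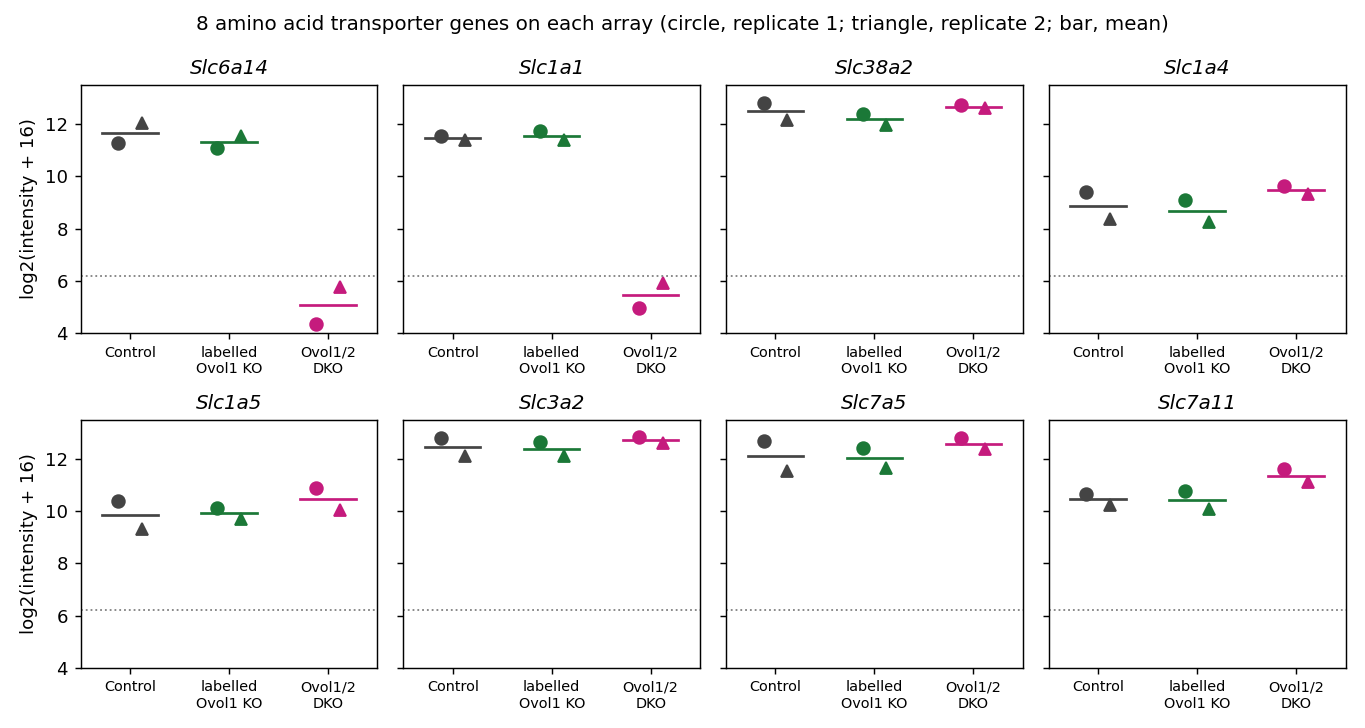
Log2(intensity + 16) of the 8 transporter genes on each of the 6 arrays, with 1 panel per gene; circles are replicate 1, triangles replicate 2, bars group means of 2 arrays, and the dotted line the background level of 6.20. Slc6a14 and Slc1a1 lie under the line on both Ovol1/2 DKO arrays, and the other 6 genes lie well above it on every array.

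Other genes had profiles like these over the 6 arrays. Likeness was measured by Pearson's r over the 6 arrays among 11400 genes whose highest array reached the median of all gene means, as a description of arrays that share the split between the double knockout and the rest. Most like Slc6a14 were Cldn7, which encodes a tight junction claudin (r = 0.998), Prss12 (r = 0.997) and Pglyrp3, which encodes a peptidoglycan recognition protein (r = 0.997). Most like Slc1a1 were Cnksr1 (r = 0.999), Ocln, which encodes the tight junction protein occludin (r = 0.998), and St14, which encodes the epidermal protease matriptase (r = 0.997). On both Ovol1/2 DKO arrays Slc6a14, Slc1a1, Cldn7 and Cnksr1 were below background, as was Ocln on 1, while Prss12, Pglyrp3 and St14 were above it. The ranking by r thus rests in part on signals that cannot be ordered. Neither the Slc6a14 nor the Slc1a1 profile was particular to its gene, since 250 of the 11400 genes had an r of 0.95 or more to Slc6a14 and 282 to Slc1a1.

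Markers of differentiated keratinocytes were read beside these 2 genes. The mean log2 level of their 8 measured markers was 8.98 and 9.14 on the control arrays, 10.05 and 8.64 on the labelled Ovol1 KO arrays, and 7.63 and 7.54 on the Ovol1/2 DKO arrays. All 8 had a lower mean in Ovol1/2 DKO than in control, and 1 of them passed the test, or 12.5% against 2.02% of all genes. This was Tgm1, the transglutaminase that crosslinks the cornified envelope (difference -5.00, SE 0.41, limma adjusted p = 0.00551). Against the labelled Ovol1 KO all 8 were lower too, and 2 passed, or 25% against 3.15% of all genes. The part of these markers in the low Slc6a14 and Slc1a1 signal was not tested. The keratinocyte markers, by contrast, had array means of 11.66 to 11.84 in control and 11.72 to 11.93 in Ovol1/2 DKO. Of those 10, 2 passed against control, or 20% against 2.02% of all genes. Both fell, the adhesion genes Cdh1 by 1.57 and Dsg3 by 1.25 (limma adjusted p = 0.0292 and 0.0402). The other way, 7 of the 10 had a higher mean in Ovol1/2 DKO than in control. For 6 of these both arrays lay above both control arrays, as for 21.1% of all genes. Against the labelled Ovol1 KO 1 of the 10 rose and 2 fell, where 3.15% of all genes passed.

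The neutral amino acid exchangers of the Slc1 family were bright in all 3 groups and did not pass in any comparison. Slc1a4 encodes an exchanger of alanine, serine, cysteine and threonine. It read 9.39 and 8.37 in control, 9.09 and 8.25 for the labelled Ovol1 KO, and 9.61 and 9.33 for Ovol1/2 DKO. The double knockout arrays overlapped the control arrays and lay above both labelled Ovol1 KO arrays. The difference was 0.59 from control (SE 0.41, limma adjusted p = 0.880, 95% interval -0.40 to 1.57) and 0.80 from the labelled Ovol1 KO (adjusted p = 0.472). With both arrays that lack Xist signal left out, the latter was 1.22 (limma adjusted p = 0.0325). That fit leaves 1 array each in control and labelled Ovol1 KO, which are assumed to vary like the Ovol1/2 DKO pair, and 1508 genes passed in it against 628 with all arrays.

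Slc1a5 encodes the sodium-dependent exchanger through which many dividing cells take up glutamine. Control arrays had log2 levels of 10.40 and 9.32, against 10.12 and 9.70 in the labelled Ovol1 KO and 10.88 and 10.06 for Ovol1/2 DKO. The double knockout overlapped both other groups. The difference was 0.61 from control (SE 0.43, limma adjusted p = 0.885, 95% interval -0.41 to 1.63) and 0.56 from the labelled Ovol1 KO (adjusted p = 0.656).

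The CD98 complexes pair a heavy chain with a transporting light chain. Slc3a2 encodes the heavy chain, which brings its partners to the surface. The heavy chain transcript read 12.79 and 12.12 in control, 12.63 and 12.10 for the labelled Ovol1 KO, and 12.83 and 12.61 for Ovol1/2 DKO. All 6 arrays lay within 1 unit of each other and the double knockout overlapped both other groups. The difference was 0.26 from control (SE 0.30, limma adjusted p of 1, 95% interval -0.46 to 0.98) and 0.35 from the labelled Ovol1 KO (adjusted p = 0.701).

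Slc7a5 encodes the light chain that exchanges large neutral amino acids such as leucine. Levels were 12.70 and 11.53 in control, 12.40 and 11.66 for the labelled Ovol1 KO, and 12.78 and 12.39 for Ovol1/2 DKO. Replicate 1 was the higher array in each group, and the double knockout overlapped both other groups. The difference was 0.47 from control (SE 0.43, limma adjusted p = 0.975, 95% interval -0.57 to 1.51) and 0.55 from the labelled Ovol1 KO (adjusted p = 0.662).

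Slc7a11 encodes the light chain that takes up cystine, the precursor of glutathione, in exchange for glutamate. The 2 control arrays had log2 levels of 10.67 and 10.23, with 10.78 and 10.08 in the labelled Ovol1 KO and 11.61 and 11.10 for Ovol1/2 DKO. Both double knockout arrays lay above all 4 other arrays. The difference from control was 0.91 (SE 0.32, 1.88-fold, 95% interval 0.14 to 1.68), with an unadjusted p of 0.0274 and a limma adjusted p of 0.348. The difference from the labelled Ovol1 KO was 0.93 (SE 0.32, 1.90-fold, limma adjusted p = 0.250). With the replicate number as a block the latter passed (adjusted p = 0.0380) and the former did not (adjusted p = 0.0536). In the fit without both arrays that lack Xist signal, with 1 labelled Ovol1 KO array and 1508 genes passing, the difference from the labelled Ovol1 KO was 1.27 (limma adjusted p = 0.0422). Of all genes, 5.13% passed in the first of these blocked comparisons (2.63% higher) and 2.99% in the second (1.09% higher).

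Slc38a2 encodes a sodium-driven carrier of small neutral amino acids, with glutamine among them, that cells make more of when amino acids are short. It read 12.82 and 12.17 in control, 12.40 and 11.96 for the labelled Ovol1 KO, and 12.74 and 12.61 for Ovol1/2 DKO. The double knockout arrays lay between the control arrays and above both labelled Ovol1 KO arrays. The difference was 0.18 from control (SE 0.28, limma adjusted p of 1, 95% interval -0.50 to 0.85) and 0.49 from the labelled Ovol1 KO (adjusted p = 0.528).

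Over the 6 genes not chosen for this contrast, 0 passed between Ovol1/2 DKO and control in the limma fit, where 2.02% of 19938 genes passed (0.622% higher, 1.4% lower). At an unadjusted p under 0.05 in that fit there was 1, Slc7a11, beside 2071 of all 19938 genes. With the replicate block 0 of the 6 passed. Slc1a4, Slc1a5 and Slc7a11 then had an unadjusted p under 0.05 (limma, 0.0403, 0.0279 and 0.00168), as did 2907 of all genes. All 6 differences were above 0, with a median of 0.53 against 0.03 for all genes, but only Slc7a11 had both double knockout arrays above both control arrays, as 21.1% of all genes did. Without control replicate 2 the differences of Slc3a2, Slc7a5 and Slc38a2 were -0.074, -0.12 and -0.14, and those of Slc1a4 and Slc1a5 were 0.078 and 0.069. Against the labelled Ovol1 KO, 0 of the 6 passed, where 3.15% of all genes passed (1.24% higher, 1.91% lower). There 1 had an unadjusted p under 0.05, beside 2802 of all genes. With the replicate block Slc7a11 passed. Slc1a4, Slc1a5, Slc7a11 and Slc38a2 then had an unadjusted p under 0.05 (limma, 0.0128, 0.0384, 0.00154 and 0.0413), as did 4463 of all genes. In this comparison 3 of the 6, Slc1a4, Slc7a11 and Slc38a2, had both double knockout arrays above both others, as did 24.6% of all genes. These comparisons share the double knockout arrays. Between the labelled Ovol1 KO and control, 0 of the 8 genes passed and 0 had an unadjusted p under 0.05, and all 8 adjusted p were 0.999. In that limma comparison 0% of all genes passed, and 153 had an unadjusted p under 0.05. Its differences were -0.21 for Slc1a4, 0.05 for Slc1a5, -0.09 for Slc3a2 and Slc7a5, -0.02 for Slc7a11 and -0.31 for Slc38a2.

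Among the other transporters, a change passed for Slc7a8, which encodes another light chain that pairs with Slc3a2 and exchanges neutral amino acids. The list held 47 further amino acid transporters of the plasma membrane and the lysosome, of which 33 had a group mean above background. Slc7a8 stood at 6.25 and 6.54 in control, 5.94 and 6.02 for the labelled Ovol1 KO, and 8.94 and 9.84 for Ovol1/2 DKO. Both double knockout arrays lay above all others, which were at or near background. It rose by 2.99 against control (SE 0.32, 7.95-fold, limma adjusted p = 0.0106) and was at least 9.14-fold higher than in the labelled Ovol1 KO (difference 3.41, adjusted p = 0.00654). It passed under every alternative run. It was the 1 gene of the 47 that passed against control, 2.13% against 2.02% of all genes, and none fell. The median difference over the 47 was -0.02.

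Against the labelled Ovol1 KO, 2 of the 47 rose, Slc7a8 and Slc38a3, and none fell, where 3.15% of all genes passed. Slc38a3, which encodes a glutamine carrier, stood at 6.66 and 6.41 in control, 6.33 and 5.92 for the labelled Ovol1 KO, and 7.42 and 7.34 for Ovol1/2 DKO. Its difference from the labelled Ovol1 KO, where the array at 5.92 was below background, was 1.26 (SE 0.23, limma adjusted p = 0.0373). It did not pass without any 1 of the 4 arrays of those groups, with adjusted p from 0.0684 to 0.234. It was also lost with quantile normalization (adjusted p = 0.0575). With the replicate block 5 rose and 1 fell, where 5.13% of all genes passed. The genes added by it included Slc1a3, a glutamate carrier, at 2.51 (adjusted p = 0.178, blocked 0.0331), Slc38a4 at 1.01 (0.0663, blocked 0.0346) and the lysosomal Slc66a1 at -0.89 (0.0750, blocked 0.0466). Slc43a1, a carrier of large neutral amino acids that was below background in the labelled Ovol1 KO, was at least 1.81-fold higher (0.188, blocked 0.0253).

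Slc1a3 is a near relative of Slc1a1 that also carries glutamate and aspartate. It stood at 7.41 and 5.45 in control, 6.97 and 5.18 for the labelled Ovol1 KO, and 8.73 and 8.44 for Ovol1/2 DKO. Both double knockout arrays lay above all others, and the difference from control of 2.16 did not pass (SE 0.75, limma adjusted p = 0.334, blocked 0.0680). The arrays at 5.45 and 5.18 were below background, so the differences of Slc1a3 from both groups are not exact in size. The remaining 356 genes with an Slc name, which carry many kinds of solute, had 2 that rose and 12 that fell against control, or 3.93%. Of all genes 2.02% passed there (0.622% higher, 1.4% lower). Thy1, one of 11 measured fibroblast markers, also rose in Ovol1/2 DKO, by 1.67 (SE 0.22, limma adjusted p = 0.0187). It was the 1 of the 11 that passed (9.09% against 2.02% of all genes). With the replicate block 2 of the 11 passed, where 2.99% of all genes did. The array means of those 11 markers overlapped, at 6.62 to 7.46 in control and 7.12 to 7.74 in Ovol1/2 DKO, and their part in the Slc7a8 difference was not tested.

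**Figure D2:**
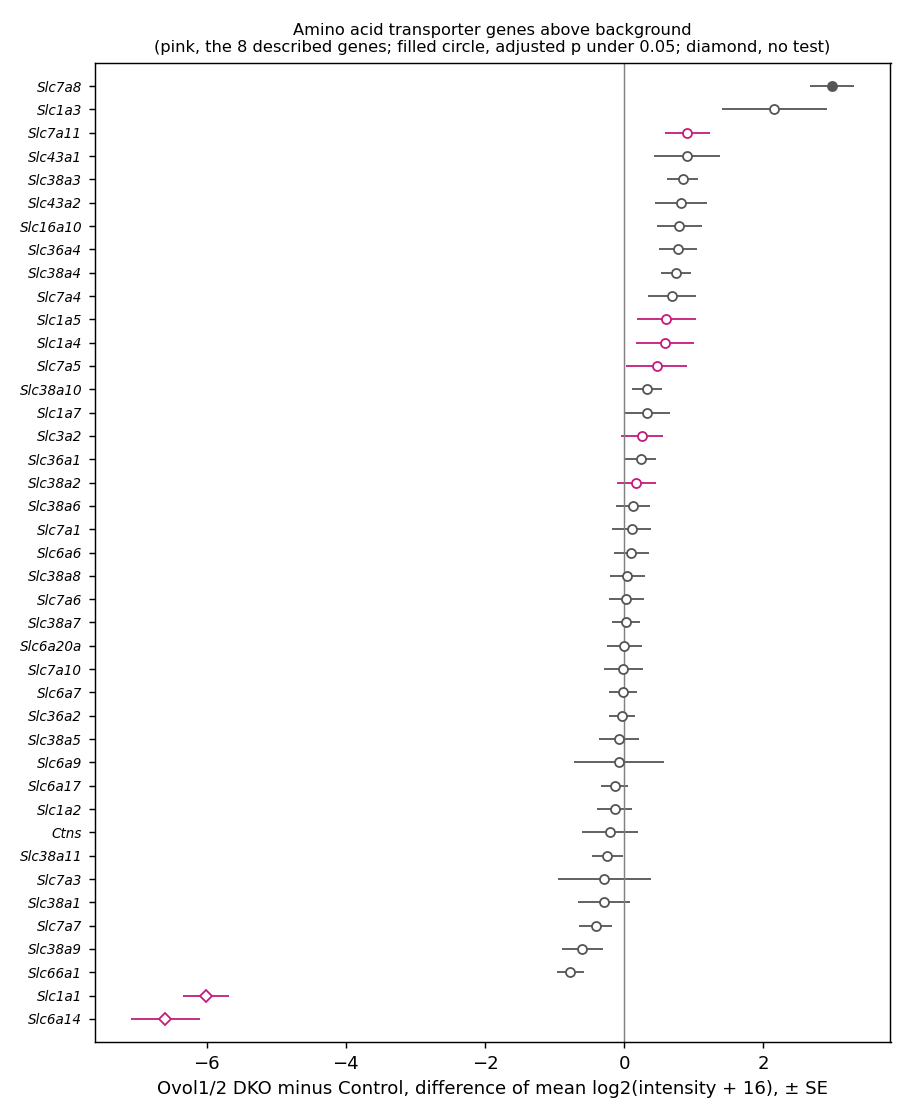
Difference of mean log2(intensity + 16) between Ovol1/2 DKO and control for the 41 amino acid transporter genes with a group mean above background, with bars of 1 SE; the 8 described genes are pink, a filled circle is an adjusted p under 0.05, and diamonds are the 2 genes given with no test. Slc7a8 is the filled point at 2.99, and Slc1a1 and Slc6a14 stand apart at the low end.

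Few genes that use or sense the transported amino acids were called, as was so of all genes. Of all 19938 genes, 2.02% passed against control in limma and 3.15% against the labelled Ovol1 KO. At an unadjusted p under 0.05 were 2071 and 2802 of them. Of 10 mitochondrial amino acid carriers 0 passed against control in limma, with 2 at an unadjusted p under 0.05. Against the labelled Ovol1 KO 1 fell (10% against 3.15% of all genes). This was Slc25a18, a glutamate carrier, at 6.39 and 6.57 in control, 6.51 and 6.70 for the labelled Ovol1 KO, and 5.51 and 5.36 for Ovol1/2 DKO. The double knockout arrays were below background and the others just above it, so it was at least 1.33-fold lower than the labelled Ovol1 KO (limma adjusted p = 0.0324) and at least 1.22-fold lower than control (adjusted p = 0.0629, blocked 0.0448). The first did not pass without any 1 of the 4 arrays compared, with adjusted p from 0.0870 to 0.255.

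Of 20 genes of the amino acid response, 1 fell against control (5% against 2.02% of all genes). Atf3, a stress-induced repressor, stood at 10.45 and 9.64 in control, 9.17 and 8.86 for the labelled Ovol1 KO, and 8.20 and 8.03 for Ovol1/2 DKO. The double knockout arrays were the lowest and the control arrays the highest, with a difference of -1.93 (SE 0.30, limma adjusted p = 0.0320). The call held without control replicate 2 and was lost without any 1 of the other 5 arrays, with adjusted p up to 0.206. With only the groups compared the limma adjusted p was 0.0510, which is the same fit as without either labelled Ovol1 KO array. Against the labelled Ovol1 KO 0 of the 20 passed in limma, with 4 at an unadjusted p under 0.05, and the median difference of the list from control was -0.09.

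Of 14 genes of glutamine, glutamate, arginine and proline metabolism, 0 passed against control in limma, with 3 at an unadjusted p under 0.05. Against the labelled Ovol1 KO 1 fell (7.14% against 3.15% of all genes). Arg1, which splits arginine, stood at 10.78 and 11.61 in control, 12.30 and 11.64 for the labelled Ovol1 KO, and 4.99 and 8.14 for Ovol1/2 DKO. Both double knockout arrays were lower than all others but far from each other, and the one at 4.99 was below background. The differences of Arg1 thus rest in part on a signal too low to be read exactly. They were -5.40 from the labelled Ovol1 KO (SE 0.93, limma adjusted p = 0.0325) and -4.63 from control (adjusted p = 0.0711). The call was lost without either labelled Ovol1 KO array, with adjusted p of 0.154 and 0.0943.

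Of 17 glutathione and Nrf2 genes, which share the cystine supply of Slc7a11, 1 fell in both comparisons (5.88% against 2.02% and 3.15% of all genes). Gpx2, an epithelial glutathione peroxidase, stood at 7.99 and 9.34 in control, 8.93 and 9.58 for the labelled Ovol1 KO, and 5.18 and 4.59 for Ovol1/2 DKO, where it was below background. It was at least 5.53-fold lower than control (difference -3.78, SE 0.48, limma adjusted p = 0.0177) and at least 8.34-fold lower than the labelled Ovol1 KO (-4.37, adjusted p = 0.00921). The call against control was lost without either double knockout array (adjusted p = 0.0603 and 0.105), and that against the labelled Ovol1 KO without its replicate 1 or without double knockout replicate 2 (0.0502 and 0.0511). Gclc, the catalytic subunit of the first enzyme of glutathione synthesis, was 2.15-fold higher than in the labelled Ovol1 KO (limma adjusted p = 0.119, blocked 0.0297). With an offset of 64, the calls of Slc38a3, Slc25a18, Atf3, Arg1 and Gpx2 were lost, with limma adjusted p from 0.0504 to 0.0978.

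No gene of the other 4 lists passed in limma in these 2 comparisons. Among 10 genes of serine, glycine and one-carbon synthesis, and among 18 cytosolic aminoacyl-tRNA synthetases, 0 had an unadjusted p under 0.05 in either. Among 31 genes of amino acid sensing and mTORC1, 2 had one against control and 2 against the labelled Ovol1 KO. Among 4 binding partners of transporters 0 and 1 had one, and of all 19938 genes 2071 and 2802. Those with the smallest p against control were Aldh1l1 at 1.17 and Shmt2 at 0.33, the synthetases Rars at -0.43 and Qars at 0.14, Castor2, a relative of an arginine sensor, at -0.80, and the sestrin gene Sesn1 at 1.23, and Cd44 at -0.46 and Itgb1 at 0.33. Their adjusted p were 0.408 or higher.

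The 6 transporters other than Slc6a14 and Slc1a1 also differed by replicate number. Each of the 6 was higher on replicate 1 than on replicate 2 in all 3 groups, as were 28.1% of all genes. For Slc7a5 replicate 1 was higher by 1.17 in control, 0.74 in the labelled Ovol1 KO and 0.39 in Ovol1/2 DKO. For Slc1a5 the differences were 1.08, 0.42 and 0.82, and for Slc1a4 they were 1.02, 0.84 and 0.28. In Slc1a4, Slc3a2, Slc7a5 and Slc38a2 the difference was smallest in Ovol1/2 DKO. For Slc3a2 it was 0.67, 0.54 and 0.22, for Slc38a2 0.64, 0.43 and 0.13, and for Slc7a11 0.44, 0.70 and 0.52. Slc6a14 was lower on replicate 1 by 0.75 in control and 0.48 in the labelled Ovol1 KO, and Slc1a1 was higher there by 0.14 and 0.31. Their Ovol1/2 DKO arrays were below background and are not ordered.

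**Figure D3:**
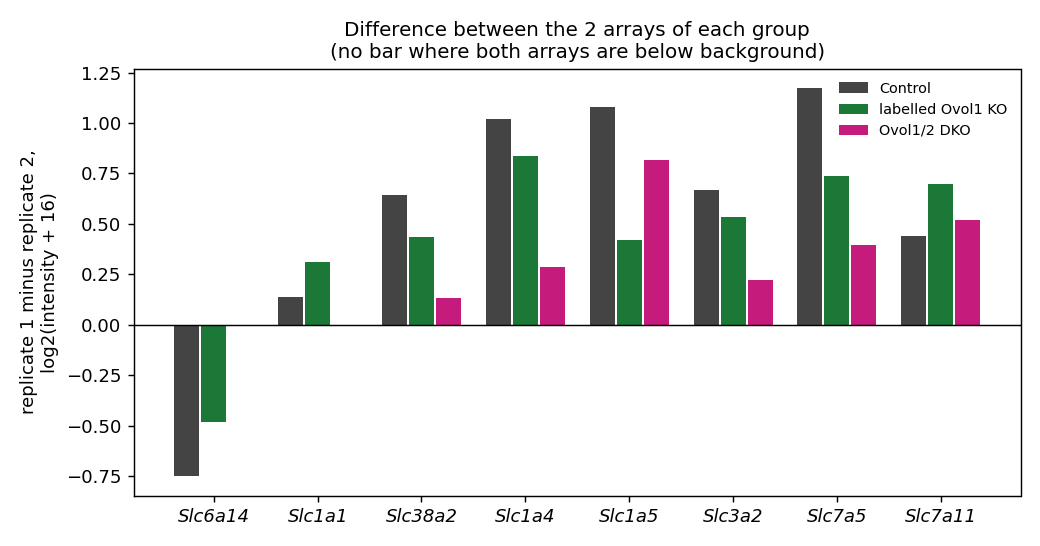
Replicate 1 minus replicate 2 in log2(intensity + 16) for the 8 genes within control (grey), labelled Ovol1 KO (green) and Ovol1/2 DKO (pink), 1 array minus 1 array per bar, with no bar where both arrays were below background. Bars of 6 genes are above 0 in all 3 groups, and the 2 bars of Slc6a14 are below 0.

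In the limma fit with the replicate number as a term, the replicate 1 minus replicate 2 coefficient was 0.77 for Slc1a5 and Slc7a5, 0.71 for Slc1a4, 0.55 for Slc7a11, 0.47 for Slc3a2 and 0.40 for Slc38a2. None of these 6 passed, with adjusted p from 0.119 to 0.195. No gene of the array passed (0%), while 4617 had an unadjusted p under 0.05. The labels do not say what the number stands for.

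The lists of genes tied to amino acid supply were counted the same way, beside the 28.1% of all genes. Of 18 aminoacyl-tRNA synthetases, which charge tRNA with amino acids, 16 were higher on replicate 1 in all 3 groups (88.9%), with a median over the list of 0.45. Among them Eprs stood at 11.17 and 10.38 in control, 10.97 and 10.29 for the labelled Ovol1 KO, and 11.10 and 10.58 for Ovol1/2 DKO. Of 10 genes of serine, glycine and one-carbon synthesis 7 did so (70.0%), with a median of 0.62, and Psat1 stood at 11.86 and 10.90, 11.83 and 10.86, and 11.83 and 11.26. Of 20 genes of the amino acid response 11 did so (55.0%), with a median of 0.40.

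Atf4 itself stood at 11.50 and 10.75 in control, 11.40 and 10.62 for the labelled Ovol1 KO, and 11.50 and 10.89 for Ovol1/2 DKO. Asns, the asparagine synthetase that Atf4 induces, stood at 12.66 and 11.95, 12.71 and 11.86, and 12.56 and 12.16. In both, every replicate 1 array lay above every replicate 2 array. By median the other lists were nearer to all genes, whose median was 0.04. By share higher on replicate 1 in all 3 groups, mitochondrial carriers stood at 50% and glutathione genes at 47.1%. Glutamine to proline metabolism stood at 35.7%, sensing genes at 32.3% and the 4 binding partners at 0%, beside 28.1% of all genes. The median was 0.63 for the 6 transporters, 0.24 for mitochondrial carriers and for glutamine to proline metabolism, 0.17 for glutathione genes, 0.14 for sensing genes and -0.01 for the other 47 transporters, of which 10 were higher on replicate 1 in all 3 groups (21.3%); 14 of the 47 had no group mean above background. Eprs, Psat1, Atf4 and Asns were named after their values were seen.

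Fibroblast markers ran the opposite way. Of the 11 fibroblast markers measured, 8 were lower on replicate 1 in all 3 groups, as were 19.9% of all genes, with a median of -0.67. Their mean log2 level was 6.62, 6.74 and 7.12 on the replicate 1 arrays of control, labelled Ovol1 KO and Ovol1/2 DKO, and 7.46, 7.47 and 7.74 on the replicate 2 arrays. Of 10 leukocyte, 7 skeletal muscle and 5 Schwann and Merkel cell markers, 6, 4 and 3 were lower on replicate 1 in all 3 groups. In the same lists 4, 2 and 2 markers were below background on every array, so these counts may include genes that cannot be ordered. Those lists had medians of -0.23, -0.22 and -0.25 and array means near background, 5.82 to 6.93. Melanocyte markers ran like the transporters only in part. Of 9, 4 were higher on replicate 1 in all 3 groups (44.4% against 28.1% of all genes) and 1 was lower, with a median of 0.52. Their mean log2 level on replicates 1 and 2 was 7.11 and 7.12 in control. It was 7.02 and 6.38 for the labelled Ovol1 KO, and 6.68 and 6.26 for Ovol1/2 DKO. The remaining cell type lists had medians from -0.10 to 0.10. Of the 3 replicate 1 arrays, 2 were those without Xist signal. The part of these in the replicate difference of the transporters was not tested.

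**Figure D4:**
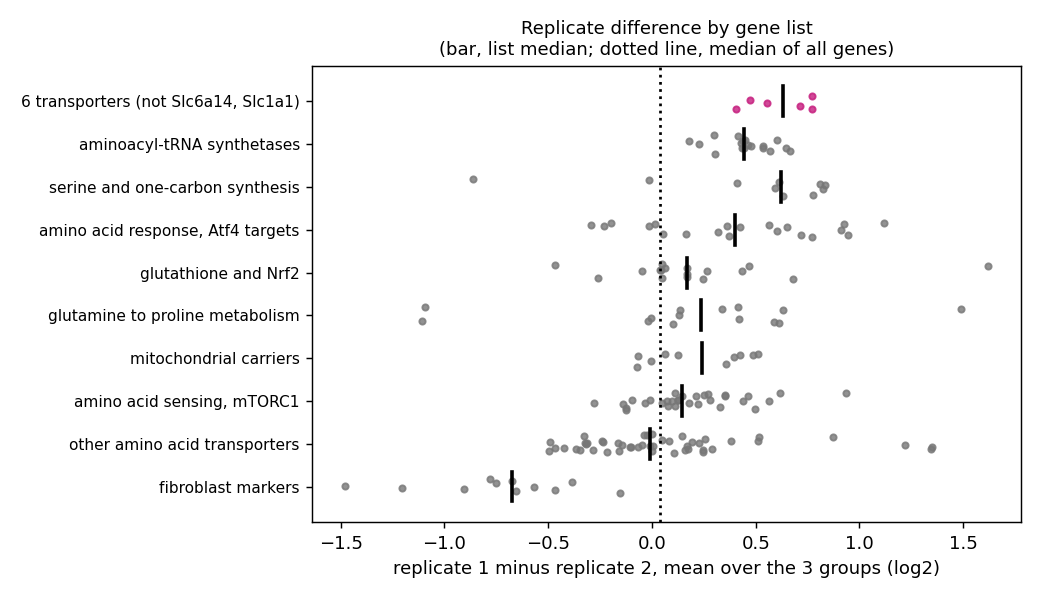
Replicate 1 minus replicate 2, averaged over the 3 groups, for each measured gene of 10 lists (1 point per gene); black bars are list medians and the dotted line is the median of all genes, 0.04. The 6 transporters have a median of 0.63 and the synthetases one of 0.45, while the fibroblast markers have one of -0.67.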

How the data were processed

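Per the labels' protocols, whole-transcript amplification and biotin labelling preceded hybridisation to 6 one-colour Affymetrix arrays. Each deposited value is a linear intensity of a probe set. The submitters' processing notes name Affymetrix Expression Console 1.1.1 and PLIER 2.0. Not given in the sources used here were the background correction and normalization. Median array intensity was 103.3 to 109.8.

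Of 35556 probe sets, the platform annotation gave 1 symbol to 21789 and several to 1621, leaving 12146 unnamed here. Entrez identifiers gave current symbols from the RefSeq table of GRCm38.p6, except for 91. The brightest probe set on average stood for each of 999 genes that had more than 1. Of 271 list symbols, 15 were matched by an older symbol or synonym and 19 were not matched.

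One limma 3.58.1 fit (R 4.3.3, lmFit and eBayes) of log2(intensity + 16) over 6 arrays in 3 groups covered the 3 comparisons (residual degrees of freedom 3, prior 3.68). A gene passed at a Benjamini-Hochberg adjusted p under 0.05 over 19938 genes. With 2 arrays against 2 no exact two-sided p can be under 0.333, so the tests rest on spread pooled over genes. The number of arrays limits the precision, with a median SE of 0.245. The fit was tested on simulated data.

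The members and lists were chosen with earlier results of these data known. Named were the 8 members, list genes that passed or else had the smallest p, and the 3 genes most like a member whose arrays ranged over more than 2. Genes that passed only with the replicate block, and the 4 named for their replicate difference, were added after their values were seen, as was the reading of the replicate coefficient. Array deviations from group means correlated between same-numbered arrays at 0.261 (control, labelled Ovol1 KO), 0.490 (control, Ovol1/2 DKO) and 0.194 (labelled Ovol1 KO, Ovol1/2 DKO). The numbers were therefore used as a block that pairs the arrays, but only in an alternative fit. The main fit held no replicate term, and results not called blocked come from it unpaired. For Slc1a5 against control the SE was 0.43 in the main fit and 0.21 with the block. Alternatives were the replicate block, leaving out arrays, fitting only the groups compared, offsets of 1 and 64, median centring, quantile normalization, dropping dim genes, the mean over probe sets and an intensity trend.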

Additional observations from a re-analysis of the deposited data

How the results depend on the processing

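There were 608 results of a gene in a comparison under 16 alternative settings. Of these, 547 kept their direction and side of the threshold, 27 no longer passed, 16 newly passed and 18 changed sign. The 547 include Slc6a14 and Slc1a1 in Ovol1/2 DKO against both other groups, each under all 16 settings. These 2 genes were already known to be low there, so those entries are no evidence of stability. Slc6a14 and Slc1a1 were lower in Ovol1/2 DKO under every setting, Slc7a8 passed under every setting, and every sign change was of a difference that did not pass. The count of genes passing between Ovol1/2 DKO and control was 403, 99 to 455 without 1 array, 1395 without both arrays that lack Xist signal, and 155 with an offset of 64. Between Ovol1/2 DKO and labelled Ovol1 KO it was 628, 135 to 831 without 1 array, 1508 without both, 311 with an offset of 64 and 1022 with the replicate block. Between labelled Ovol1 KO and control it was 0, 0 to 3 without 1 array and 20 without both. The replicate block changed no call of a named gene other than those given beside the results. Without 1 array, the difference of Ovol1/2 DKO from control ran from -0.074 to 0.60 for Slc3a2, -0.12 to 1.06 for Slc7a5 and -0.14 to 0.50 for Slc38a2, 0.078 to 1.099 for Slc1a4 and 0.069 to 1.15 for Slc1a5, below 0 only without control replicate 2. The difference of labelled Ovol1 KO from control ran from -0.70 to 0.047 for Slc6a14, -0.057 to 0.25 for Slc1a1, -0.72 to 0.30 for Slc1a4, -0.49 to 0.59 for Slc1a5, -0.43 to 0.24 for Slc3a2, -0.67 to 0.50 for Slc7a5, -0.37 to 0.33 for Slc7a11 and -0.64 to 0.0086 for Slc38a2. It was 0.13 for Slc7a5 without both arrays that lack Xist signal and 0.038 for Slc7a11 with quantile normalization. In the fit without both those arrays, whose spread comes from the Ovol1/2 DKO pair and the prior, Slc1a3, Slc43a1 and Gclc also passed against labelled Ovol1 KO and Slc25a18 against control. Slc25a18 also passed against control with an offset of 1 (adjusted p = 0.0448) or an intensity trend (0.0424), and Slc38a4 against labelled Ovol1 KO with the trend (0.0355), all by limma. Where 1 array is left in a group, it is assumed to vary like the other groups. The cause of these shifts was not tested. Signals under 6.20 cannot be ordered, which limits Slc6a14 and Slc1a1 in Ovol1/2 DKO to bounds.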
